A study of Schmidtea mediterranea with 9 samples.

Results

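The testis was compared with the non-gonadal tissue around it in sexual worms of *Schmidtea mediterranea*, a freshwater planarian. The comparison used 6 of the 9 sequenced libraries, the 3 labelled testis and the 3 labelled non-gonadal, and covered every transcript with a deposited CPM (a library-scaled count) of at least 1 in at least 3 of the 9 libraries. This kept 18416 of 36036 transcripts, or 51.1%, with no less than 99.6% of the counts in any library. At the edge of this rule, the kept transcript nearest to it had a third-highest CPM of 1.00 and the nearest one left out had 0.991, and 248 kept and 295 excluded transcripts lay within 10% of the limit.

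Laser-capture microdissection cuts marked areas out of stained cryosections, so that RNA can be sequenced from a single organ. All worms were wild type and of the sexual strain, and no treatment is given. Each library pooled the captures of 6 worms, 4 sectioned across and 2 sectioned sagittally, and the 3 ovary libraries, which entered the filter, the scaling factors and the estimate of the spread but not the comparison, pooled 14 worms each. Nothing in the labels states that replicates came from separate cultures or days, so that the p-values measure the spread between these pools. The methods do not state whether the testis and non-gonadal captures of a replicate came from the same worms. The main fit treated them as unpaired. In such bulk samples, fewer cells of a type and less RNA per cell cannot be told apart.

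Planarian testes are scattered along the dorsal side of the body, and each is a small lobe in which germ cells divide, pass through meiosis and elongate into sperm from its outer layer towards its lumen. Spermatogonia at the margin express *nanos*, and RNA-binding proteins are prominent regulators of the later stages, as they are in the testes of other animals. The tissue outside the gonads holds gut, muscle, secretory cells, neurons, neoblasts and epidermis.

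The libraries were of similar depth, with 18611584 to 21654320 counts in non-gonadal tissue and 22157475 to 25537267 in testis. Between libraries of a tissue, the chi-square per transcript was 11.9 to 29.1, which is above counting noise, so that each library was counted as 1 replicate. The markers taken for testis and the neuron marker *tph1* followed the labels. All 8 testis markers, which are *eIF3c*, *nf-yb*, *elav2*, *bic-c*, *C3H-zfn-1*, *sped-1*, *rap55* and *nanos*, were higher in the testis. Among them only *nanos* had a higher mean in the ovary libraries, at 66.2 TPM against 30.0 in testis. The study also uses *klf4* for early male germ cells, and it was not among these markers. The match to human KLF4 (SMED30004223) stood lower in testis, at a mean of 2.20 TPM against 5.56 in non-gonadal tissue. The fitted fall was 1.88-fold. *tph1*, a marker of neurons, was nearly absent from testis with 11 counts in all. The non-gonadal libraries held 316 and the ovary libraries 217. The ovary markers were mixed. Mean TPM was 98.8 in testis and 14.7 outside the gonads for *lecg*, and 34.7 and 5.57 for the CGH-1 match. *zfs1* went the other way, at 0.0310 and 3.29. The non-gonadal replicate 2 stood apart in these 3 ovary markers, with 520 counts of *lecg*, 56 of *zfs1* and 599 of the CGH-1 match. The other non-gonadal libraries had at most 129, 23 and 50. Other transcripts abundant in the ovary did not all do so. In non-gonadal replicates 1 to 3, the match to the kinase CDK1 had 86, 96 and 82 counts and the match to the kinase MPS1 had 42, 53 and 42. The match to human KLF4 was again highest in replicate 2, with 94, 233 and 147. The source of these reads was not tested.

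Testis and non-gonadal tissue differed in most of their transcripts. Of 18416 transcripts, 6145 were higher in the testis (33.4% of those tested) and 6473 were lower (35.1%), so that 68.5% were called in either direction. A call required a 2-fold change with an adjusted p (Benjamini-Hochberg) no higher than 0.01 in edgeR's quasi-likelihood test. A further 1216 higher and 1318 lower transcripts passed the adjusted p but changed by less than 2-fold. For 6143 of the 6145 and 6467 of the 6473, no testis library overlapped a non-gonadal library, which held for 42.7% of all transcripts in the higher direction and 45.7% in the lower. With 3 libraries a side, a two-sided exact permutation p can be no smaller than 0.1, and the calls therefore rest on the model of all transcripts. The numbers depend on how the libraries are scaled. With edgeR's TMM factors, 1.02 to 1.04 for non-gonadal and 0.670 to 0.727 for testis libraries, the median log2 fold change (log2FC, testis over non-gonadal) of all transcripts was -0.10, and when scaled by library size alone it shifted by -0.55, with 5199 higher and 8031 lower.

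The 2 directions differed in the size of the change. The median transcript called higher was raised 13.5-fold and the median transcript called lower was reduced 5.79-fold. At least 16-fold were 2930 of the higher transcripts, or 47.7%, against 1232 of the lower, or 19.03%. At least 256-fold were 1372 higher and 116 lower transcripts, and at least 512-fold were 332 and 45. The numbers at the far end depended on single libraries. Without non-gonadal replicate 1, 726 transcripts instead of 332 were at least 512-fold higher, and without testis replicate 3, 212 were at least 256-fold lower and 110 at least 512-fold lower.

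**Figure D1:**
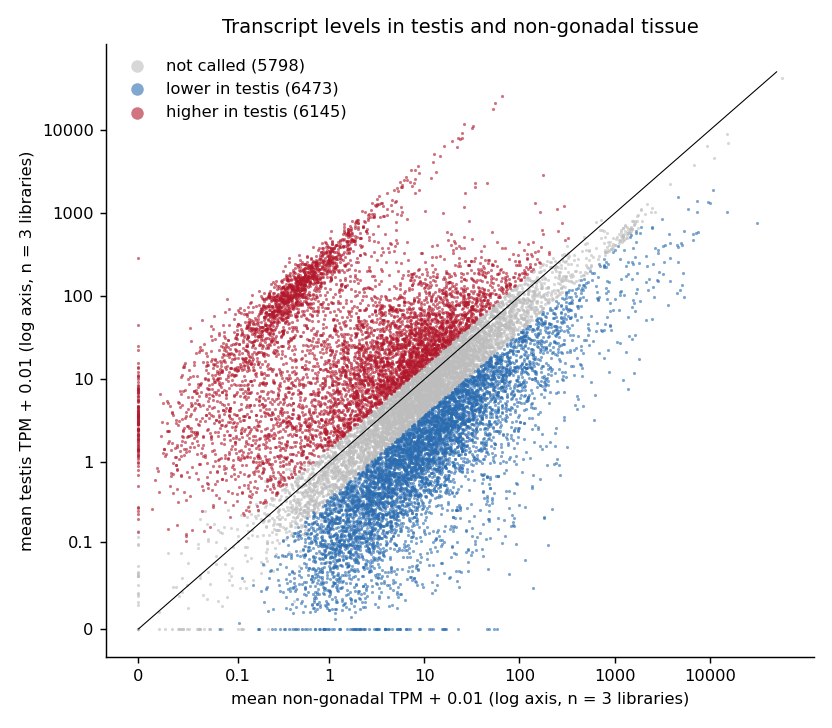
Mean TPM of each of the 18416 transcripts in non-gonadal (x axis) and testis (y axis) libraries, both on log axes after adding 0.01, coloured by call, with the line of equal levels. The 6145 transcripts higher in testis form a broad cloud near the line and a narrow band parallel to it, and the 6473 lower transcripts form a single cloud.

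The sizes of the rise had 2 maxima with a dip between them. The number of transcripts per unit of log2FC declined from 1568 between 1 and 2 to 296 between 6 and 7, then increased to 1040 between 8 and 9 and declined again to 299 between 9 and 10. The mirror side showed no such second maximum, with 2194 transcripts between -2 and -1, 621 between -5 and -4 and 85 between -8 and -7. Of the 1040 transcripts between 8 and 9, 585 reached 100 TPM in testis, against 51 of the 296 between 6 and 7. Of the 1302 transcripts called higher with at least 100 TPM in testis, 859, or 66.0%, stood in non-gonadal tissue at between 0.1% and 1% of their testis level. Only 175 lay between 1% and 10%, and 267 lay above 10%. In the non-gonadal libraries, these 859 had a median of 0.479% of the testis level in replicate 1, 0.259% in replicate 2 and 0.253% in replicate 3. In the ovary libraries, the same transcripts had medians of 0.952%, 0.581% and 0.962%. In replicate 1 the median was thus the highest of the 3 non-gonadal libraries. *sped-1*, *C3H-zfn-1*, *elav2* and *rap55*, all testis markers, are among these transcripts, and the part of testis RNA in the non-gonadal captures in these low levels was not tested. In the opposite direction, the 655 lower transcripts with at least 100 TPM in non-gonadal tissue were rarely so far apart. Only 28 of them stood at 0.1% to 1% of the non-gonadal level in testis and 3 below that, while 241 stood at 1% to 10% and 383 above 10%.

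A single transcript of the 1302 lay under 0.1%, and it is also the transcript with the largest fitted rise of all. SMED30023267, for which the sources used here give no name, had 276, 324 and 269 TPM in the testis libraries and no read at all in the 3 non-gonadal and 3 ovary libraries. Testis libraries held 36722 reads of it, so that it was at least 14991-fold higher than in non-gonadal tissue, with the latter set to 3 counts over the group. Among the 363 transcripts called higher with a mean of 200 to 400 TPM in testis, the other 362 all had reads in non-gonadal libraries, 80 for the median transcript and at least 13.

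Transcripts without any read in the other tissue were few. Of the higher transcripts, 114 (1.86%) had 0 counts in all 3 non-gonadal libraries, with a median of 3.20 TPM in testis, and 12 of them reached 10 TPM. Of the lower transcripts, 89 (1.37%) had 0 counts in all 3 testis libraries, with a median of 2.09 TPM in non-gonadal tissue, and 13 of them reached 10 TPM. The most abundant of the latter, SMED30033037, had 48.2, 51.5 and 74.6 TPM in the non-gonadal libraries and was at least 231-fold lower in testis. Given such depths, a count of 0 does not show that a transcript is absent.

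Most counts of the testis libraries lay on transcripts called higher. They held 69.5%, 73.1% and 68.1% of all testis counts and only 5.74%, 5.75% and 5.65% of non-gonadal counts. The transcripts called lower held 56.9%, 55.2% and 56.6% of the non-gonadal counts and 7.62%, 6.54% and 7.92% of the testis counts. The 5798 transcripts not called held 22.4% ± 1.87 of testis counts and 38.1% ± 0.884 of non-gonadal counts (mean ± SD, n = 3 libraries each). In the ovary libraries, transcripts called higher in testis held 14.0% ± 0.175 of the counts and those called lower 35.3% ± 1.04 (mean ± SD, n = 3). The calls used these same counts, so that the shares describe the size of the calls and are no test of them.

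**Figure D2:**
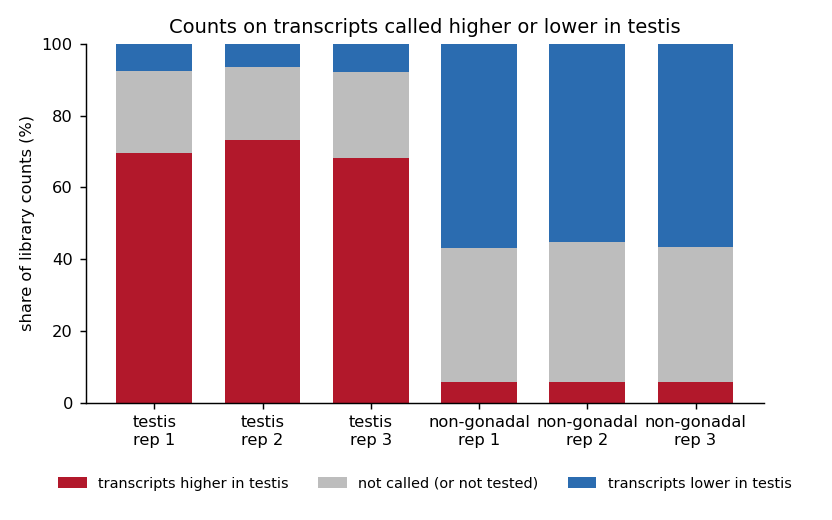
Share of the counts of each testis and non-gonadal library (y axis, percent) on transcripts called higher in testis, not called and called lower. Transcripts called higher hold 68.1% to 73.1% of testis counts and at most 5.75% of non-gonadal counts.

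The testis transcriptome was spread over more transcripts at the top than the non-gonadal one. To reach 50% of the counts took 705, 643 and 682 transcripts in testis, against 292, 284 and 289 in non-gonadal tissue. The ovary libraries were like the testis in this, with 606, 696 and 607. The top 10 transcripts held 9.21% to 10.4% of testis counts and 13.9% to 14.7% of non-gonadal counts. Of the 100 most abundant testis transcripts, 78 were called higher, 8 were called lower and 14 were not called. Of the 100 most abundant non-gonadal transcripts, 75 were called lower in testis, none was called higher and 25 were not called. The 2 lists of 100 shared 22 transcripts. Of all the higher transcripts, 4343 reached 10 TPM in testis, 1302 reached 100 and 73 reached 1000. Of the lower, 3139 reached 10 TPM in non-gonadal tissue, 655 reached 100 and 99 reached 1000.

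The most abundant transcript called higher had no name in the sources used here. SMED30006104 had 25159, 26886 and 24731 TPM in the testis libraries. Its non-gonadal values were 103, 48.5 and 44.9 TPM, the highest of them in replicate 1 as for the 859 transcripts above. It held 1.13% of all testis counts, and its log2FC was 9.05 (SE 0.45, adjusted p = 5.2e-10 in edgeR). Its counterpart in the other direction, SMED30010350, had 31833, 30836 and 31410 TPM in the non-gonadal libraries and 834, 532 and 922 in the testis libraries. It held 1.54% of non-gonadal counts and 0.0345% of testis counts (log2FC -4.93, SE 0.25, adjusted p = 7.0e-10 in edgeR).

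All 10 transcripts with a gonadal symbol were higher in the testis, 10 of 10 against 33.4% of all transcripts, with no overlap between the groups in any of them. These transcripts were picked as gonadal genes, so that the count describes the captures rather than the list. Their median log2FC was 6.82, against -0.10 over all transcripts. *sped-1* (SMED30009122) was the most abundant of the list, with 8411, 8178 and 7661 TPM in the testis libraries and 38.7, 18.3 and 18.2 TPM in the non-gonadal libraries. Its log2FC was 8.77 (SE 0.47, adjusted p = 1.2e-09, edgeR). *C3H-zfn-1* (SMED30034336), named for its CCCH zinc finger, a domain that often binds RNA, had 2253, 2523 and 2132 TPM in testis and 11.3, 6.01 and 5.84 in non-gonadal tissue (log2FC 8.65, SE 0.40). *elav2* (SMED30011702), of the ELAV family of RNA-binding proteins, had 428, 484 and 422 TPM in testis and 2.60, 1.19 and 0.843 in non-gonadal tissue (log2FC 8.61, SE 0.39). In each of these 3, replicate 1 was the highest of the non-gonadal libraries. Without it their log2FC values were 9.22, 9.03 and 9.19. The adjusted p of *C3H-zfn-1* and *elav2* was at most 2.6e-10 in edgeR.

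The other RNA regulators of the list were less abundant. *rap55* (SMED30019490), whose homologs sit in cytoplasmic RNA granules, had 357, 329 and 316 TPM in testis and 2.86, 2.06 and 2.10 in non-gonadal tissue (log2FC 7.59, SE 0.29). *bic-c* (SMED30015067), a homolog of the translational regulator Bicaudal-C of flies, had 23.0, 17.4 and 22.03 TPM in testis and 0.292, 0.267 and 0.223 in non-gonadal tissue (log2FC 6.74, SE 0.21). *eIF3c* (SMED30007934), a subunit of a translation initiation factor, was raised by 6.90 (SE 0.16) from 0.699, 0.907 and 0.688 TPM to 69.3, 72.5 and 62.9. The transcript named *gapdh* (SMED30011351), a glycolytic enzyme, had 97.3, 66.1 and 82.6 TPM in testis and 1.49, 0.948 and 0.837 in non-gonadal tissue (log2FC 6.67, SE 0.21). The adjusted p of these 4 was at most 4.4e-11 in edgeR.

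The smallest rises of the list belonged to early germ cell genes and to the ovarian lectin. *nf-yb* (SMED30003873), a subunit of the transcription factor NF-Y that maintains spermatogonial stem cells in planarians, had 324, 363 and 306 TPM in testis and 7.01, 5.53 and 5.87 in non-gonadal tissue, and its log2FC was 6.19 (SE 0.16, adjusted p = 2.8e-12, edgeR). *nanos* (SMED30034750), a conserved translational repressor of germ cells, had 31.9, 25.2 and 33.1 TPM in testis and 10.8, 12.5 and 10.8 in non-gonadal tissue. The log2FC of *nanos* was 1.83 (SE 0.13, adjusted p = 1.9e-08, edgeR), which placed it at rank 4858 of the 18416 transcripts when sorted by rise. *lecg* (SMED30019646), a galactose-binding lectin of oocytes, had 90.5, 104 and 102 TPM in testis and 8.20, 28.4 and 7.40 in non-gonadal tissue. Its mean in the ovary libraries was far higher, at 2917 TPM. Its log2FC of 3.18 (SE 0.41, adjusted p = 7.5e-06, edgeR) became 4.09 without non-gonadal replicate 2.

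**Figure D3:**
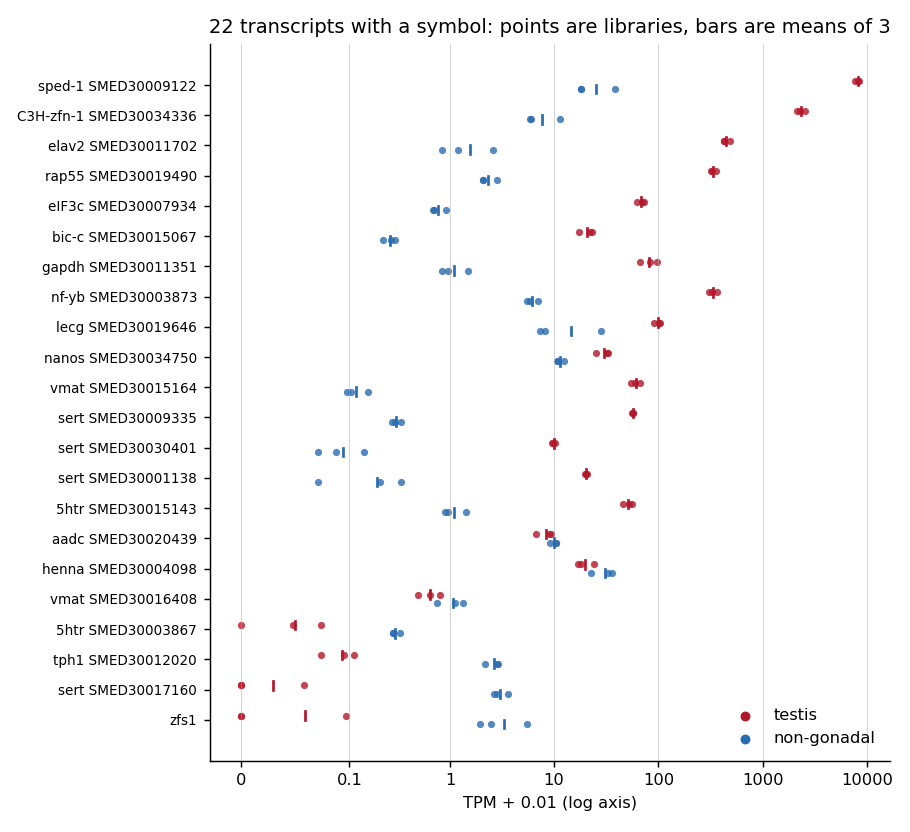
TPM (log axis, after adding 0.01) of the 22 transcripts with a symbol in each testis and non-gonadal library, sorted by log2FC within the gonadal transcripts, the serotonin pathway and *zfs1*. Points are libraries and bars are means of 3, and the groups overlap only for *henna*, *aadc* and the *vmat* transcript SMED30016408 after TMM scaling.

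Transcripts of the serotonin pathway went in both directions. Serotonin is made from tryptophan by a hydroxylase and the decarboxylase AADC, is loaded into vesicles by VMAT, acts on 5-HT receptors and is taken up again by SERT. Of the 11 transcripts of this pathway, 5 were higher in testis, 3 were lower and 3 were not called, against 33.4% and 35.1% of all transcripts. Where a symbol had several transcripts, their calls differed.

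None of the 3 enzymes of synthesis was higher in testis. *tph1* (SMED30012020), the tryptophan hydroxylase, had 0.0488, 0.0882 and 0.111 TPM in testis and 2.84, 2.93 and 2.16 in non-gonadal tissue (log2FC -4.52, SE 0.35, adjusted p = 5.5e-08, edgeR). *henna* (SMED30004098), the other aromatic amino acid hydroxylase, had 17.1, 17.97 and 24.3 TPM in testis and 36.2, 33.1 and 22.7 in non-gonadal tissue, and was not called, at -0.20 (SE 0.18, adjusted p = 0.32, edgeR). *aadc* (SMED30020439) was not called either, with 9.28, 6.70 and 8.89 TPM in testis and 9.16, 10.5 and 10.5 in non-gonadal tissue. Its log2FC was 0.15 (SE 0.12, adjusted p = 0.27, edgeR), and -0.40 when scaled by library size alone.

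The transporters held both the largest rise and the largest fall among the 11. The *vmat* transcript SMED30015164 had 59.8, 66.9 and 54.97 TPM in testis and 0.155, 0.0950 and 0.104 in non-gonadal tissue (log2FC 9.43, SE 0.19, adjusted p = 2.2e-12, edgeR) and rank 103 of the 18416. The other *vmat* transcript, SMED30016408, was not called, with 0.483, 0.643 and 0.807 TPM in testis and 1.13, 0.751 and 1.32 in non-gonadal tissue (log2FC -0.28, SE 0.27). Of the 4 *sert* transcripts, SMED30009335 was the most abundant in testis, with 57.3, 56.2 and 57.6 TPM against 0.336, 0.288 and 0.270, a difference of 257-fold (adjusted p = 2.5e-12, edgeR). SMED30001138 and SMED30030401 were raised by 7.12 (SE 0.26) and 7.21 (SE 0.24), from at most 0.332 and 0.142 TPM in any non-gonadal library to 19.8 to 20.5 and 9.62 to 10.2 in testis. Without non-gonadal replicate 2, which held 7 of the 12 non-gonadal reads of SMED30030401, the latter was 7.80. The fourth, SMED30017160, went the other way, with 2.65, 3.61 and 2.84 TPM in non-gonadal tissue and 2 reads in all testis libraries, both in replicate 3. Non-gonadal tissue exceeded testis by a ratio of 216 for it, with an exact 95% interval of 59.5 to 1788. Summed over the 4 transcripts, *sert* stood at 85.9 to 88.0 TPM in testis and 3.20 to 4.24 in non-gonadal tissue. Reads that match several of these transcripts may have been divided among them, because no source used here states how such reads were counted.

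The 2 receptor transcripts went in opposite directions. SMED30015143, a *5htr* transcript, had 52.5, 56.1 and 46.1 TPM in testis and 1.42, 0.904 and 0.962 in non-gonadal tissue (log2FC 6.00, SE 0.21, adjusted p = 1.8e-11, edgeR). The second *5htr* transcript, SMED30003867, had 12, 12 and 11 counts in the non-gonadal libraries and 2, 0 and 1 in the testis libraries. It was called lower, and the ratio of non-gonadal tissue to testis was 9.53 with an exact 95% interval of 3.00 to 48.4. *zfs1*, a zinc finger gene expressed in the ovary, was also called lower, with 1.94, 5.48 and 2.46 TPM in non-gonadal tissue and 1 read in the testis libraries. The ratio for *zfs1* was 78.4 (13.7 to 3128), and the highest non-gonadal value lay in replicate 2, without which its log2FC was -5.33 instead of -5.93. Without testis replicate 2, which held the single testis read, it was -8.18.

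The remaining gene lists were drawn from transcripts that the study had called ovary-enriched on these same libraries, so that their counts are not independent evidence and the background of all transcripts does not apply to them without change. The part of that sheet at hand lists 531 transcripts, 416 of them with a name. Of the 531, 42 were higher in testis (7.91%), 123 were lower (23.2%) and 366 were not called. Within it, 12 lists with 119 transcripts were described, and most of the names are SwissProt matches to proteins of other species.

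Neural genes were mostly lower in testis. In this list 73.3% of the members were called lower, against 35.1% of all transcripts and 23.2% of the ovary-enriched sheet. Of 15 transcripts for receptors, channels, peptides and synaptic vesicle proteins, none was higher in testis and 11 were lower, with a median log2FC of -3.32, or -2.37 with transcripts that had no testis read set to 3 counts. Secreted peptide prohormone 17 (SMED30008210), a precursor of neuropeptides, had 91.3, 105.3 and 59.8 TPM in the non-gonadal libraries and 1, 0 and 2 reads in the testis libraries. Non-gonadal tissue exceeded testis by a ratio of 386 for it, with an exact 95% interval of 132 to 1872. Receptors of both acetylcholine and serotonin were among the lower calls, with the match to the mouse nicotinic receptor subunit ACHA6 (SMED30004906) at -3.32 (SE 0.22) and the match to the fly serotonin receptor 5HT1R (SMED30005303) at -1.16 (SE 0.30). The list held 3 transcripts matched to vesicular acetylcholine transporters, which load acetylcholine into vesicles, and they did not move alike. The match to zebrafish VACHB (SMED30006235) was called lower with log2FC -5.14 (SE 0.34), and the matches to mouse VACHT (SMED30001666) and zebrafish VACHA (SMED30009311) were not called, at 0.91 (SE 0.15) and 0.52 (SE 0.31). VACHT became a call with DESeq2 size factors, which brought the higher calls of the list to 1.

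Genes of the cell cycle held more higher than lower calls after TMM scaling. The share called higher was 25% in the replication list and 44.4% in the mitosis list. With 16 and 9 members, these shares say nothing particular about the lists. Of all transcripts 33.4% were higher and 35.1% lower, and of the ovary-enriched sheet 7.91% and 23.2%. Of 16 genes of DNA replication and its checkpoint, 4 were higher in testis and none was lower, with a median log2FC of 0.46, which became -0.09 with 1 higher call when scaled by library size alone. With DESeq2 size factors the higher calls were 6. The match to mouse MCM8 (SMED30001391), a helicase of meiotic recombination in mammals, had 2.32, 2.44 and 2.56 TPM in testis and 0.484, 0.995 and 0.763 in non-gonadal tissue (log2FC 2.12, SE 0.19, adjusted p = 2.1e-07, edgeR). The match to cow DPOE4 (SMED30011687), an accessory subunit of DNA polymerase epsilon, was the most abundant member and was called higher at 1.17 (SE 0.18), but not when scaled by library size alone, at 0.63. In the mitosis list, 4 of 9 were higher and 1 was lower, and when scaled by library size alone 1 was higher and 1 lower. The match to the cell cycle kinase CDK1 (SMED30003848) was called higher, by 2.82-fold (adjusted p = 7.4e-08, edgeR), but not when scaled by library size alone. The match to the kinase MPS1 (SMED30004904), which acts at the spindle checkpoint, had 5.02, 6.56 and 6.44 TPM in testis against 0.882, 0.956 and 0.828 (log2FC 3.19, SE 0.16). The match to the fission yeast kinase mek1 (SMED30008475), meiosis-specific in that yeast, was lower, with 1, 1 and 3 counts in testis against 22, 19 and 30. Its log2FC was -3.47 (SE 0.47), and -4.18 without testis replicate 3.

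Among 11 regulators of cytoplasmic and germline RNA, 1 was higher (9.09%) and 4 were lower (36.4%). The shares were 33.4% and 35.1% over all transcripts, and 7.91% and 23.2% over the ovary-enriched sheet. The match to *C. elegans* CGH-1 (SMED30006692), an RNA helicase that protects maternal mRNA in worm oocytes, had 35.8, 34.6 and 33.8 TPM in testis and 1.16, 14.3 and 1.30 in non-gonadal tissue. Its mean in the ovary libraries was far higher, at 1753 TPM. Its log2FC was 3.06 (SE 0.69, adjusted p = 0.0011, edgeR) and 5.24 without non-gonadal replicate 2, the library that also stood apart in *lecg* and *zfs1*. The match to human TUT7 (SMED30007216), which adds uridines to RNA ends, had 18, 21 and 10 counts in non-gonadal tissue and 1, 1 and 0 in testis. It was called lower, with a ratio of 20.0 (5.25 to 170). The match to fly LIN28 (SMED30002483), an RNA-binding protein of developmental timing, was called lower at -1.23 (SE 0.20).

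The genes of general cell upkeep mostly did not pass the threshold. Over all transcripts 33.4% were higher and 35.1% lower, and over the ovary-enriched sheet 7.91% and 23.2%. None of 14 genes of pre-rRNA processing was called in either direction, with a median log2FC of 0.20 that became -0.35 when scaled by library size alone. With DESeq2 size factors, in the DESeq2 Wald test or without non-gonadal replicate 2, 1 of them was called higher. At an adjusted p of 0.01 or less but under 2-fold, the match to human POP1 had the largest value, 0.94. Of 11 nuclear pore and transport genes only the match to human RAE1L (SMED30002898), an mRNA export factor, was called, and higher at 1.47 (SE 0.18). That call was lost when scaled by library size alone, at 0.93, and there 2 members were called lower, while 2 were called higher without non-gonadal replicate 2. Of 6 proteasome and p97 genes, 1 was called higher. This was a match to mouse PRS6A (SMED30003973) with 6, 4 and 3 counts in testis and none in non-gonadal tissue, at least 5.31-fold. The most abundant proteasome member, the match to chicken PSD13 (SMED30006815), had 27.998, 31.3 and 32.5 TPM in testis and 29.7, 31.1 and 34.2 in non-gonadal tissue. At 0.38 (SE 0.10) it was under 2-fold. The other uncalled members of this list had few reads in the libraries compared. Summed testis against non-gonadal counts were 3 against 0 (RPN1 match), 9 against 3 (PRS8), 27 against 17 (PSMD2) and 5 against 24 (TERA). Their ovary libraries held 126 to 4185. With so few reads, the lack of a call does not show that their levels were alike.

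The calls among structural genes and transcription factors were all in the lower direction, at 33.3% (extracellular matrix) to 50% (innexins) of the members of each list, against 35.1% of all transcripts and 23.2% of the ovary-enriched sheet. With 4 to 13 members a list, these shares say nothing particular about the lists. Of 9 microtubule and centrosome genes, 4 were lower, with the largest fall for the match to rat dynein light chain 2 (SMED30002774), a motor subunit. It had 8.96, 14.0 and 11.9 TPM in non-gonadal tissue and 1.60, 0.304 and 1.37 in testis, or 7.996-fold lower after TMM scaling (adjusted p = 2.9e-06, edgeR). The match to a newt alpha-tubulin (SMED30001212), a microtubule subunit, was more abundant, with 57.5, 53.3 and 61.9 TPM in non-gonadal tissue and 9.84, 12.4 and 15.7 in testis (log2FC -1.75, SE 0.16). Of 4 innexins, which form gap junctions in invertebrates, 2 were lower. The match to *C. elegans* UNC-9 (SMED30000845) had 18, 34 and 26 counts in non-gonadal tissue and none in testis, at least 21.2-fold lower. The 2 not called had too few reads to be called, with 1 count in each tissue for INX19 and 3 non-gonadal counts for INX11. Of 6 extracellular matrix genes 2 were lower, the match to fly papilin (SMED30011674), a matrix glycoprotein, by -1.56 (SE 0.12) and the match to human laminin subunit alpha-1 by -1.28. Of 13 transcription factors 6 were lower, and the match to mouse E2F5 had no read in either tissue. The matches to rat GFI1 (SMED30006871) and mouse PAX5 (SMED30007365), both regulators of blood cell development in mammals, were called lower at -3.92 (SE 0.38) and -2.45 (SE 0.27). Of 5 transposon-like transcripts, 1 was called, in the higher direction (20%, against 33.4% of all transcripts). It was a match to a yeast Ty3 polyprotein (SMED30011004) with 9, 5 and 3 counts in testis and none in non-gonadal tissue, at least 6.94-fold. Without non-gonadal replicate 1, 2 of the 5 were called higher.

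**Figure D4:**
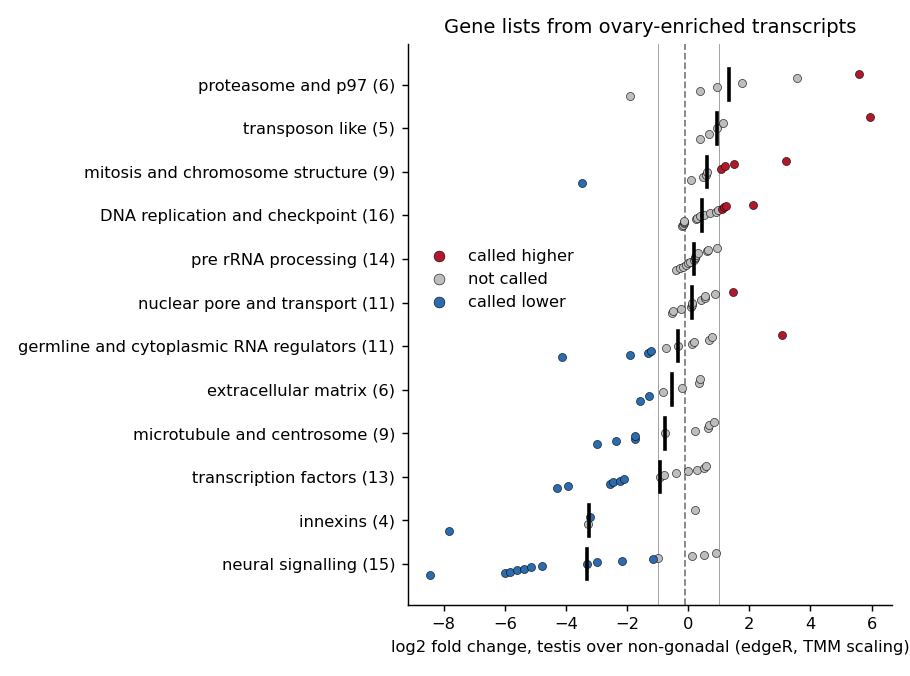
Log2FC of testis over non-gonadal tissue (x axis) for the members of 12 gene lists drawn from ovary-enriched transcripts, 1 point a transcript coloured by call, with list medians as black bars, the median of all 18416 transcripts as a dashed line and 2-fold as thin lines. Neural signalling has 11 of 15 members called lower, and pre-rRNA processing has none called. Points of transcripts with no read in a tissue are fitted values that depend on the prior count.

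The remaining 4 transcripts were all lower in testis, against 35.1% of all transcripts, and were picked by name. They include a gene expressed in neoblasts (the planarian stem cells) and in female germ cells. Each of the 4 had a higher mean TPM in the ovary libraries than in testis or non-gonadal tissue. The transcripts annotated as *tgs-1*, a gene of pluripotent neoblasts, had 3.16, 3.02 and 2.24 TPM (SMED30000949) and 2.69, 5.84 and 5.34 TPM (SMED30002872) in non-gonadal tissue, and at most 0.484 and 0.775 in any testis library. Their log2FC values were -2.66 (SE 0.32) and -2.55 (SE 0.34). The match to mouse tetraspanin-1 (SMED30010326), a membrane protein, had 36.5, 40.6 and 39.6 TPM in non-gonadal tissue and 4.54, 4.03 and 4.90 in testis (log2FC -2.68, SE 0.11). The match to zebrafish Delta-like protein C (SMED30002414), a Notch ligand, had 2.10, 2.03 and 2.17 TPM outside the gonads and 0.0631, 0.0798 and 0.137 in testis (log2FC -4.03, SE 0.23).

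The transcripts with the largest differences were short. The median length was 1263 nucleotides (quartiles 792 and 1982) among transcripts called higher, 1425 (845 and 2147) among those called lower and 1398 among those not called. Among the rises, the median was lower from a log2FC of 4 upwards. Transcripts between 2 and 4 had a median of 1386 nucleotides (quartiles 861 and 2166), the 797 between 4 and 6 had 1176 (696 and 1918), and the 2137 transcripts at 6 and over had 1131 (734 and 1751). Of the latter, 4.91% reached 3000 nucleotides, against 12.6% between 2 and 4. The 368 transcripts with a log2FC under -6 had a median of 817.5, and 29.1% of them were under 500 nucleotides, against 8.79% of all tested. These lengths are a description without a test. The number of reads a transcript collects grows with its length, and the part of this in the differences was not tested.

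**Figure D5:**
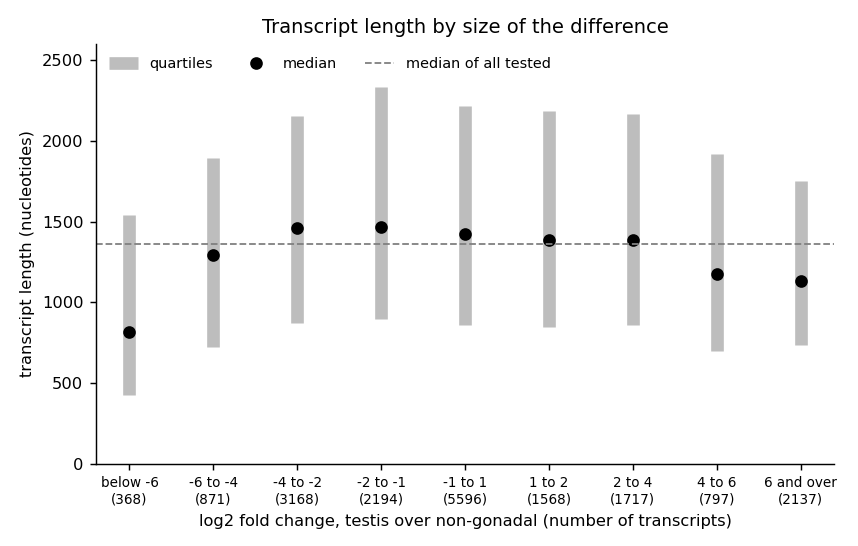
Transcript length in nucleotides (y axis) by log2FC of testis over non-gonadal tissue (x axis, with the number of transcripts). Points are medians, grey bars run between the quartiles and the dashed line is the median of all tested, 1360. The medians at both ends, 817.5 and 1131, are the lowest.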

How the data were processed

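RNA was measured in 3 testis and 3 non-gonadal libraries, with 3 ovary libraries in the same model. Per the labels and methods, the authors trimmed the reads, mapped them to a de novo transcriptome in CLC Genomics Workbench (version not given in the sources used here) and deposited counts per transcript without normalization. The authors also deposited TPM, used here for levels, RPKM, from which transcript lengths were recovered, and a scaled signal named CPM, used for the filter, which carries an undescribed composition factor. The authors' deposited log2 fold changes, linear fold changes and p-values were not used.

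Counts were tested with edgeR 4.0.16 (limma 3.58.1, R 4.3.3), in a quasi-likelihood model of all 9 libraries with TMM scaling. A call required 2-fold and an adjusted p of at most 0.01. The SE of a log2FC (log2 fold change) equals its absolute value over the root of the F statistic. Fitted changes follow TMM and therefore differ from ratios of TPM, which carries no composition factor. Where a tissue had 3 or fewer counts in all, a ratio of scaled counts has an exact 95% binomial interval, or a bound from 3 counts over the group where it had none. Intervals and bounds cover counting error only, since reads had no molecular identifiers. The scripts were tested on simulated data.

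Members and lists were chosen with earlier results of these data known. Named were the 22 transcripts with a symbol, *tgs-1*, Delta-like and tetraspanin-1 matches, and in each list the called members with the largest rise and fall and the most abundant member, of which 1 is not reported here. Of unnamed transcripts, those with the highest level in each direction, with and without counts in the other tissue, were named. VACHB, VACHT, VACHA, ACHA6, 5HT1R, CDK1, LIN28, alpha-tubulin, GFI1, PAX5, POP1 and laminin subunit alpha-1 were picked outside this rule, with their values in view. Alternatives were DESeq2 1.42.0 (size factors in edgeR and Wald test), library size alone, no filter, filterByExpr, the 6 libraries alone, each of them left out, and the replicate number as a block.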

Additional observations from a re-analysis of the deposited data

How the results depend on the processing

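No call changed direction in any alternative fit of the 18416 transcripts. Of the 6145 higher and 6473 lower calls, 5193 and 6094 held in all of them, and 5902 and 6094 when scaling by library size alone was set aside. Leaving out each library gave 6047 to 6173 higher and 6313 to 6582 lower calls. The DESeq2 Wald test gave 6388 and 6256, no filter 7138 and 7762, and the filterByExpr filter 6488 and 7210. With the replicate number as a block the counts were 6126 and 6452. Same-numbered testis and non-gonadal libraries had correlations of deviations of 0.017, 0.066 and 0.114. Pairs with different numbers ranged from -0.103 to 0.028. With 3 libraries a tissue, these values cannot decide whether same-numbered libraries came from the same worms. Non-gonadal replicate 1 correlated better with testis replicate 2, at 0.028, than with testis replicate 1.

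Scaling by library size alone gave 824 transcripts at least 256-fold and 77 at least 512-fold higher, and the DESeq2 Wald test gave 25 at least 512-fold lower. Library size alone also reduced the higher calls among the 119 list members from 12 to 5. Under it, transcripts called higher held 66.8% of testis and 3.59% of non-gonadal counts, and transcripts called lower held 14.6% and 73.7%. In the DESeq2 Wald test the non-gonadal shares were 6.29% for higher and 54.2% for lower calls, and with no filter 5.56% and 57.2%. With no filter the median length was 1159 nucleotides for higher and 1295 for lower calls, since more short transcripts with few reads were tested. Of 48 transcripts named by the rule, 2 lost their call in any alternative, both when scaled by library size alone. For the CGH-1 match the DESeq2 test gave no adjusted p. The transcripts picked outside the rule are not among the 48, and of them CDK1 lost its call when scaled by library size alone. The neural list had 10 lower calls instead of 11 in the DESeq2 Wald test. A single library moved 9 of the 48 by over 1.5-fold, among them *zfs1* (-8.18 without testis replicate 2), the *sert* transcript SMED30017160 (-10.66 without testis replicate 3), the *5htr* transcript SMED30003867 (-4.06 without testis replicate 1) and prohormone 17 (-9.37 without testis replicate 3).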
